A study of Mus musculus with 6 samples.

Results

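The genes followed here were 10 genes by which macrophages of the embryonic heart are recognised, namely Csf1r, Cd68, Mrc1, C1qa, C1qb, C1qc, Fcgr3, Ptprc, Cx3cr1 and F13a1. They were found in the table of read counts by gene symbol, joined through the gene identifier, and all 10 of them were present among 45792 genes. Macrophages are phagocytes that settle in the heart during embryonic life, at first from the yolk sac and later also from fetal liver monocytes. Their survival depends on signalling through the receptor CSF1R, and in developing organs they clear dying cells and accompany growing vessels. None of the 10 genes is restricted to macrophages in every tissue, as Ptprc is read by nearly all leukocytes and F13a1 also by megakaryocytes.

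RNA was sequenced from whole hearts of mouse embryos at embryonic day 13.5, 3 with the genotype Tie2Cre;Ino80 fl/fl and 3 controls. In the mutants, Cre is driven by the promoter of Tie2 (gene symbol Tek), which is active in endothelium and in blood-forming precursors, and Ino80, the ATPase of a chromatin remodelling complex, carries loxP sites on both alleles. The labels call the controls wild type and give the strain C57BL/6, while the paper counts every other genotype of these crosses as control and describes mixed backgrounds. The comparison asks how the macrophage genes of the heart differed when Ino80 was to be deleted in cells of the Tie2 lineage. The libraries held between 28948836 and 89675692 counted reads. Levels are given as CPM, counts per M counts after TMM scaling, which adjusts the totals for composition. In a whole heart, fewer macrophages and less RNA per macrophage cannot be told apart.

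The level of the targeted gene, counted over the whole gene in whole hearts, did not separate the groups. Ino80 was at 30.2, 31.6 and 32.7 CPM in control-labelled hearts 1 to 3 and at 36.5, 33.7 and 31.8 CPM in mutant-labelled hearts 1 to 3, a log2 fold change (mutant over control) of 0.11 with an SE of 0.08 (edgeR quasi-likelihood test, Benjamini-Hochberg adjusted p = 0.47). These counts cover every exon and every cell of the heart, while the loxP sites flank only part of the gene. By quantitative PCR, the paper found no detectable Ino80 mRNA in endothelial cells taken from later-stage mutant hearts. The whole-heart counts therefore do not test the deletion. The groups are taken as labelled, and every direction given here is that of the mutant-labelled against the control-labelled hearts. Tek was at 125, 84.3 and 94.7 CPM in the controls and at 118, 122 and 108 CPM in the mutants (adjusted p = 0.44).

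The 10 macrophage genes did not move together. In the mutant hearts 5 had a higher and 5 a lower fitted level, the log2 fold changes ran from −0.53 for Ptprc to 0.35 for Cx3cr1, and their median was 0.05, beside a median of −0.0017 over the 17125 genes tested. No macrophage gene passed an adjusted p of 0.05 in edgeR, nor did any other gene (0% of those tested), and the smallest adjusted p among the macrophage genes was 0.17, for C1qb. DESeq2 called 5.77% of 17318 genes, and 0 of the 10 macrophage genes were among them. At edgeR's unadjusted threshold of 0.05, Cx3cr1 passed as higher (1 of 10, beside 9.48% of all tested genes), and C1qb and Ptprc passed as lower (2 of 10, beside 9.98%). The same 3 genes were the ones whose control and mutant hearts did not overlap, 1 of 10 higher beside 14.3% of all genes and 2 of 10 lower beside 12.8%, so these shares were near those of the whole table.

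**Figure D1:**
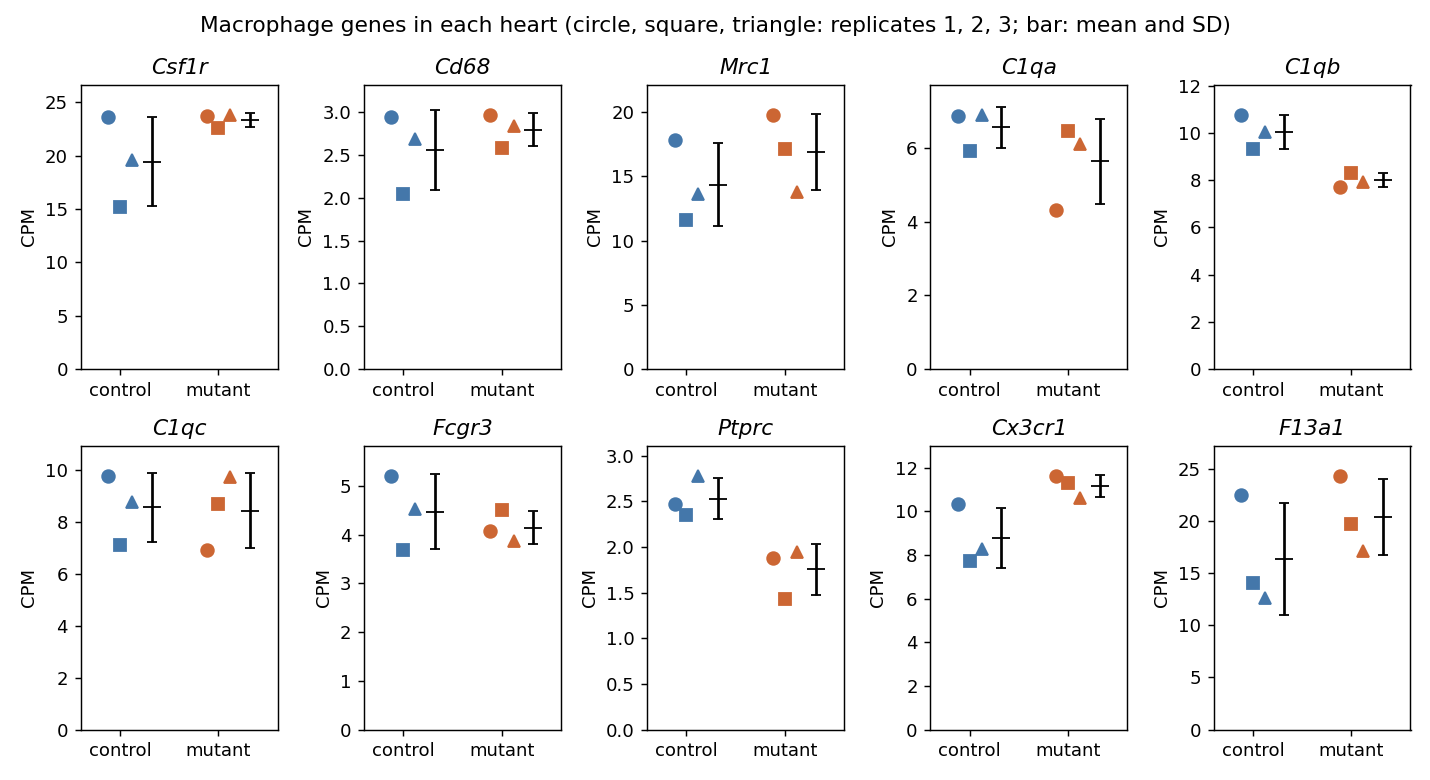
Level of the 10 macrophage genes in each heart, in CPM on a linear axis from 0, with control hearts in blue, mutant hearts in orange, a symbol for each replicate number and a black bar for the mean and SD of the 3 hearts. The control and mutant points are apart for C1qb, Ptprc and Cx3cr1 and interleave for the other 7 genes.

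Csf1r (ENSMUSG00000024621.13; GRCm38.p6 chromosome 18, 61105572 to 61131139) encodes the receptor for the growth factors CSF1 and IL-34, on which macrophages depend. It was read at 23.6, 15.2 and 19.6 CPM in the controls and at 23.7, 22.6 and 23.8 CPM in the mutants. The mutant hearts were nearly alike, and control heart 1 lay among them while control hearts 2 and 3 lay below. The means were 19.5 ± 4.19 and 23.4 ± 0.666 CPM (SD, n = 3 each), a log2 fold change of 0.26 (SE 0.15, 95% interval −0.07 to 0.60), with an edgeR adjusted p of 0.35. Hmgxb3 on the opposite strand shares 873 bp, 15.1%, of the Csf1r exons, and reads of the shared stretch cannot be assigned where strand is not used. Hmgxb3 itself was at 32.6 to 36.4 CPM in the controls and 36.1 to 37.5 CPM in the mutants (adjusted p = 0.57).

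Cx3cr1 (ENSMUSG00000052336.6; chromosome 9, 120048683 to 120068296) encodes the receptor for fractalkine, a chemokine tethered to the surface of endothelial and other cells. It was at 10.3, 7.73 and 8.27 CPM in the controls and at 11.6, 11.3 and 10.6 CPM in the mutants. Every mutant heart was above every control heart, although mutant heart 3 exceeded control heart 1 only narrowly. The means were 8.78 ± 1.37 and 11.2 ± 0.503 CPM (SD, n = 3 each), and the log2 fold change was 0.35 (SE 0.13, 95% interval 0.05 to 0.65) with an edgeR adjusted p of 0.21. Its ligand gene, Cx3cl1, was at 10.0, 11.1 and 10.6 CPM in the controls and 8.73, 14.3 and 14.5 CPM in the mutants (log2 fold change 0.23, edgeR adjusted p = 0.51). Mutant heart 1 was the lowest of the 6 for the ligand and the highest for the receptor.

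Mrc1 and F13a1 are typical of macrophages resident in tissue. Mrc1 (ENSMUSG00000026712.3; chromosome 2, 14229414 to 14332023) encodes the mannose receptor CD206, which takes up glycoproteins, and was at 17.9, 11.6 and 13.6 CPM in the controls and at 19.8, 17.1 and 13.8 CPM in the mutants. The groups overlapped, as control heart 1 was above mutant hearts 2 and 3. The means were 14.3 ± 3.21 and 16.9 ± 2.98 CPM (SD, n = 3 each; log2 fold change 0.24, SE 0.18, 95% interval −0.18 to 0.66, edgeR adjusted p = 0.49). F13a1 (ENSMUSG00000039109.13; chromosome 13, 36867178 to 37050244) encodes the A chain of coagulation factor XIII, which crosslinks fibrin. It was at 22.5, 14.1 and 12.6 CPM in the controls and at 24.3, 19.7 and 17.1 CPM in the mutants, so that control heart 1 stood above mutant hearts 2 and 3. The log2 fold change was 0.32 (SE 0.22, 95% interval −0.20 to 0.83, edgeR adjusted p = 0.45), with the highest control 1.79 times the lowest, the widest spread within a group for any of the 10 genes.

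Cd68 (ENSMUSG00000018774.11; chromosome 11, 69664213 to 69666170) encodes a glycoprotein of the macrophage lysosome. Its level was 2.94, 2.04 and 2.69 CPM in the controls and 2.96, 2.59 and 2.84 CPM in the mutants. Control heart 2 was the lowest of the 6, the other hearts overlapped, and the log2 fold change was 0.13 (SE 0.20, 95% interval −0.33 to 0.58, edgeR adjusted p = 0.75). The counts behind it ran from 60 to 274 per heart.

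C1qa, C1qb and C1qc lie side by side on chromosome 4 and encode the chains of C1q, which starts the classical complement pathway, tags dying cells for uptake and is made mostly by macrophages. C1qb (ENSMUSG00000036905.8; 136880126 to 136886200) was at 10.8, 9.33 and 10.1 CPM in the controls and at 7.73, 8.32 and 7.93 CPM in the mutants. All mutant hearts were below all control hearts, and both groups were tight. The means were 10.1 ± 0.709 and 8.00 ± 0.299 CPM (SD, n = 3 each), a log2 fold change of −0.33 (SE 0.11, 95% interval −0.58 to −0.08), with an adjusted p of 0.17 in edgeR and 0.15 in DESeq2.

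C1qa (ENSMUSG00000036887.5; 136895916 to 136898844) was at 6.86, 5.92 and 6.88 CPM in the controls and at 4.32, 6.46 and 6.12 CPM in the mutants. Its lower mutant mean came from heart 1, while mutant hearts 2 and 3 lay within the control range (log2 fold change −0.23, SE 0.18, 95% interval −0.64 to 0.18, edgeR adjusted p = 0.49). C1qc (ENSMUSG00000036896.5; 136889801 to 136892936) was at 9.75, 7.12 and 8.77 CPM in the controls and at 6.89, 8.67 and 9.71 CPM in the mutants, with means of 8.54 ± 1.33 and 8.42 ± 1.43 CPM (SD, n = 3 each; log2 fold change −0.03, SE 0.17, edgeR adjusted p = 0.94). The groups of C1qc covered nearly the same range, so the non-overlap of C1qb was not shared by its neighbours.

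The balance of the C1q chains was taken as each chain's share of the CPM per kb of transcript summed over them. C1qb made up 40.2%, 42.5% and 39.9% of the sum in the controls and 41.9%, 36.3% and 34.3% in the mutants. C1qc made up 33.0%, 29.3% and 31.5% in the controls and 33.7%, 34.2% and 38.0% in the mutants. The share of C1qc was higher in each mutant heart than in any control heart, that of C1qb overlapped, and that of C1qa was 27.9 ± 0.924% against 27.2 ± 2.57% (SD, n = 3 each). The shares were examined after the levels had been seen and were not tested.

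Fcgr3 (ENSMUSG00000059498.11; chromosome 1, 171051169 to 171065915) encodes an activating Fc receptor that binds antibody-coated particles. It was at 5.20, 3.68 and 4.54 CPM in the controls and at 4.07, 4.51 and 3.86 CPM in the mutants, all within the control range. The log2 fold change was −0.11 (SE 0.17, 95% interval −0.51 to 0.29, edgeR adjusted p = 0.75).

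Ptprc (ENSMUSG00000026395.14; chromosome 1, 138062859 to 138175756) encodes CD45, the surface phosphatase of leukocytes. It was at 2.47, 2.35 and 2.78 CPM in the controls and at 1.88, 1.43 and 1.95 CPM in the mutants. Every mutant heart was below every control heart, and the fitted difference was the largest in size of the 10 genes. The means were 2.53 ± 0.221 and 1.75 ± 0.280 CPM (SD, n = 3 each; log2 fold change −0.53, SE 0.21, 95% interval −1.01 to −0.05, edgeR adjusted p = 0.22). Between 57 and 174 reads per heart lay behind these values, the fewest of the 10 genes together with Cd68.

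**Figure D2:**
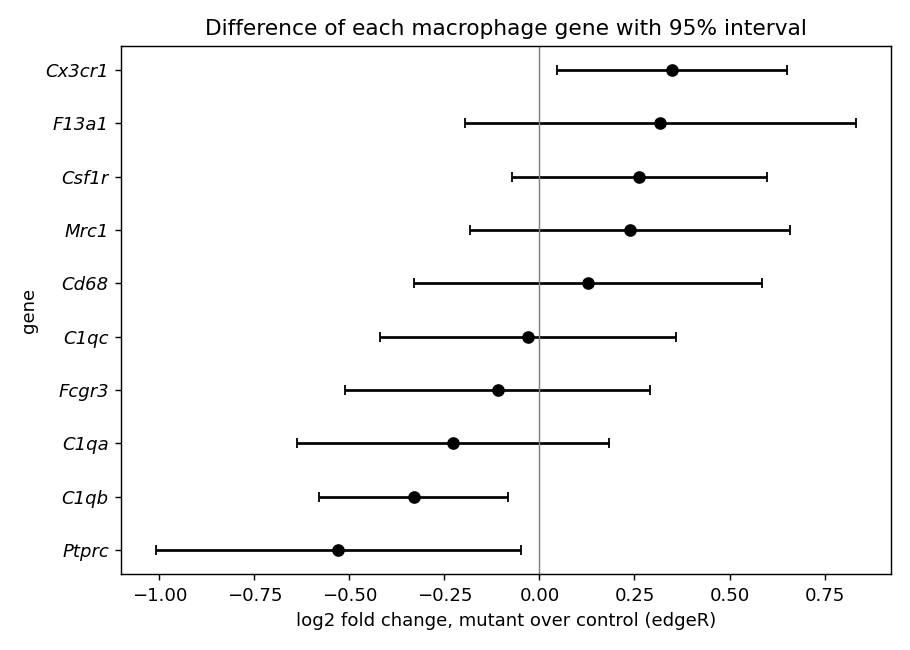
Log2 fold change (mutant over control) of each macrophage gene fitted by edgeR, with its 95% interval as a horizontal bar and genes ordered by the fitted value. The intervals of Ptprc and C1qb lie below 0, that of Cx3cr1 lies above 0, and the other 7 include 0.

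Levels of different genes were compared as CPM per kb of the principal transcript. In the controls C1qb was highest at 9.23 ± 0.65 CPM per kb, followed by C1qc at 7.10 ± 1.1 and C1qa at 6.30 ± 0.53, which differed by less than the SD of C1qc. Next came F13a1 at 4.14 ± 1.4 and Csf1r at 4.14 ± 0.89 CPM per kb, which could not be ordered, and Fcgr3 at 3.32 ± 0.57, within the SD of Csf1r. Mrc1 at 2.67 ± 0.60 was below Fcgr3 by slightly more than either SD, and Mrc1, Cd68 at 2.08 ± 0.38 and Cx3cr1 at 1.95 ± 0.30 CPM per kb each differed from the next by less than the larger SD. Ptprc was lowest at 0.538 ± 0.047 CPM per kb, far below its neighbour (SD, n = 3 for each gene). In the mutants C1qb at 7.35 ± 0.28 and C1qc at 7.002 ± 1.2 CPM per kb differed by less than the SD of C1qc. C1qa at 5.42 ± 1.1 CPM per kb in the mutants differed by less than its SD from F13a1 at 5.16 ± 0.92 and Csf1r at 4.97 ± 0.14. The C1q genes thus stood apart at the top in the controls, while in the mutants C1qb and C1qc did and C1qa did not. Ptprc was lowest in both groups (0.373 ± 0.060 in the mutants).

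The summed level of the 10 genes differed more among the control than among the mutant hearts. The CPM of the 10 genes summed to 112, 79.0 and 89.7 in control hearts 1 to 3 and to 107, 103 and 97.8 in mutant hearts 1 to 3. Control heart 1 was the highest control for 8 of the 10 genes, and control heart 2 was the lowest for 9 of them. All 3 mutant sums lay between those of control hearts 1 and 2. Gene by gene, the ratio of the highest to the lowest heart was larger in the mutants for C1qa (1.498 against 1.16), C1qc (1.41 against 1.37) and Ptprc (1.36 against 1.18), and larger in the controls for the other 7 genes. The 2 hearts that set the control range were therefore left out in turn, a step chosen after the values had been seen. Without control heart 1, Csf1r, Mrc1, Cx3cr1 and F13a1 were higher in every mutant heart (4 of 10, beside 21.6% of all genes), and 2 of 10, C1qb and Ptprc, were lower (beside 20.3%). Without control heart 2, 1 of 10 was higher (Cx3cr1, beside 17.9%), and C1qa, C1qb, Fcgr3 and Ptprc were lower in every mutant heart (4 of 10, beside 17.1%).

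Because macrophages depend on CSF1R, each other gene was also expressed relative to Csf1r within each heart, as the difference of log2(CPM + 1). Csf1r is not restricted to macrophages in every tissue, and reads of the exon stretch it shares with Hmgxb3 may enter every ratio. For the 3 ratios set for testing, the group means lay within 0.06 of each other on the log2 scale. For Mrc1 the log2 ratio was −0.41 ± 0.07 in the controls and −0.46 ± 0.25 in the mutants (SD, n = 3 each; exact two-sided permutation test, p = 0.8, with 0.1 the smallest p that 3 against 3 allows). For F13a1 it was −0.26 ± 0.30 and −0.20 ± 0.24 (exact permutation p = 0.7), and for Cx3cr1 −1.05 ± 0.14 and −1.001 ± 0.08 (exact permutation p = 0.7). The control and mutant hearts overlapped in all 3 ratios.

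The other 6 ratios were chosen after the values had been seen and carry no test. Relative to Csf1r, the mutant mean was lower by 0.64 for Ptprc, 0.57 for C1qb, 0.47 for C1qa, 0.35 for Fcgr3, 0.29 for C1qc and 0.17 for Cd68 on the log2 scale. In each of these 6 the mutant hearts lay below all control hearts, for Cd68 by a difference in the last decimal that was lost with a pseudocount of 0.1. These 6 of 9 ratios stand beside 24.1% of all tested genes in that direction, and 0 of 9 beside 1.24% in the other. Any gene is set against the same 6 values of Csf1r, and the median difference over all tested genes was −0.27.

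**Figure D3:**
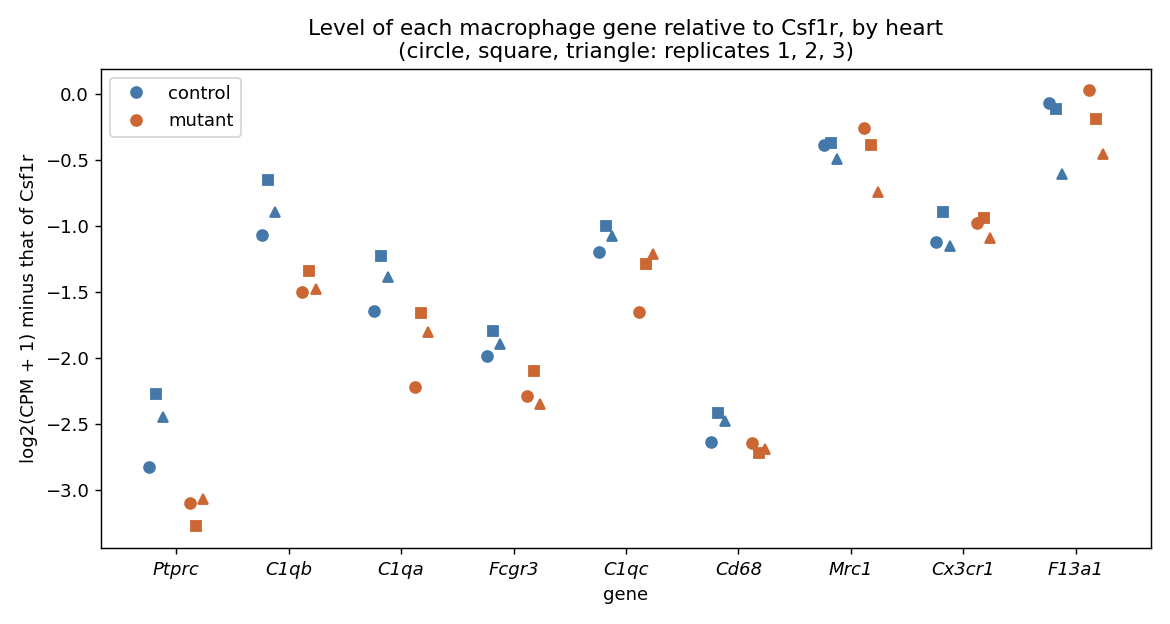
Level of each of 9 macrophage genes relative to Csf1r in each heart, as log2(CPM + 1) minus that of Csf1r, with control hearts in blue, mutant hearts in orange and a symbol for each replicate number. Mutant hearts lie below the controls from Ptprc to Cd68 and among them for Mrc1, Cx3cr1 and F13a1.

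Promoters of the macrophage genes were searched for GAGGAAG, a core sequence bound by the macrophage transcription factor PU.1 (Spi1), or its reverse complement CTTCCTC, from 250 bases before to 50 after the start site in RefSeq sequences of GRCm38.p6. The RefSeq promoter set held 8 of the 10 genes, so the promoters of Csf1r and C1qa were not examined. Of these 8, 4 (Fcgr3, Mrc1, C1qc and F13a1) held the motif in at least 1 promoter, beside 15.4% of all 27025 genes of the set. Ptprc, C1qb, Cx3cr1 and Cd68 did not hold all 7 letters in this window. Only exact matches were taken, and shorter forms of the motif, such as the GAGGAA present in Ptprc, C1qb and Cd68, were not searched. The promoters of Mrc1, which held the motif at 2 places, and of C1qc, the neighbour of C1qb, are shown with the matches in capitals. Mrc1 lies on the plus strand (chr2:14229164-14229463) and C1qc on the minus strand (chr4:136892865-136893164), both 5′ to 3′ along the gene.
Mrc1: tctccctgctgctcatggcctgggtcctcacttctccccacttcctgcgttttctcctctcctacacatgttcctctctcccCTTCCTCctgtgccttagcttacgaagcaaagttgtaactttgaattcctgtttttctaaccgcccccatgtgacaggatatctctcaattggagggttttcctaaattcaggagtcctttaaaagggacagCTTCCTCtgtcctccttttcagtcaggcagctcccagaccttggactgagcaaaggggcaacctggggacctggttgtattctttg
C1qc: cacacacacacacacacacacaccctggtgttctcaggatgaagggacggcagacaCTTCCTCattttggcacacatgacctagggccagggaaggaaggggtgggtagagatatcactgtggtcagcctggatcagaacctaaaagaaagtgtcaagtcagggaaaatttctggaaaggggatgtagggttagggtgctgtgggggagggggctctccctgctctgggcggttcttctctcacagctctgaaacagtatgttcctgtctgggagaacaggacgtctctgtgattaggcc

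The matches start 168 and 36 bases before the start site of Mrc1 and 194 bases before that of C1qc, in each case as the reverse complement. Spi1, whose product binds this motif, was at 2.18, 2.04 and 2.13 CPM in the controls and at 1.91, 2.37 and 3.01 CPM in the mutants. It was named here for the motif, and its hearts overlapped (log2 fold change 0.19, edgeR adjusted p = 0.66).

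Of 91 further genes of macrophage biology in 7 lists, 80 had enough reads to be tested. At the unadjusted threshold, 5 of the 80 passed as higher and 12 as lower, beside the 9.48% and 9.98% of all tested genes. No gene of the lists passed the adjusted threshold in edgeR. DESeq2 called 1 of the 80 higher and 5 lower, beside 436 higher and 564 lower of the 17318 genes it tested. C1s1, also called lower by DESeq2, is not among the 80 because edgeR did not test it. The fitted level was higher for 32 and lower for 48, with a median log2 fold change of −0.15.

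Among the growth factors and their receptors, 3 of 4 tested genes had a higher fitted level. Csf2ra, the alpha chain of the GM-CSF receptor, was at 9.75, 10.1 and 9.69 CPM in the controls and at 13.03, 12.7 and 13.8 CPM in the mutants, with no overlap (log2 fold change 0.42, SE 0.09). Its adjusted p was 0.093 in edgeR and 0.025 in DESeq2, the only one of the 80 that DESeq2 called higher. Csf1, the main ligand of CSF1R, was at 10.5 to 12.98 CPM in the controls and 12.7 to 13.6 CPM in the mutants (edgeR adjusted p = 0.42), and Csf2rb had a log2 fold change of −0.22 (edgeR adjusted p = 0.63).

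The transcription factors divided, with 5 of 12 higher and 7 lower. Irf8, required for monocyte and macrophage development, was at 8.85, 10.7 and 12.5 CPM in the controls and at 6.63, 7.15 and 7.21 CPM in the mutants. All mutant hearts were lower, and the log2 fold change was −0.61 (SE 0.14) with an adjusted p of 0.10 in edgeR and 0.0099 in DESeq2. Irf5, a related factor of inflammatory macrophages, was at 5.07, 3.95 and 4.57 CPM in the controls and at 5.32, 6.56 and 6.05 CPM in the mutants (log2 fold change 0.39, edgeR adjusted p = 0.22). The most abundant factors of the list, Zeb2 and Maf, both had log2 fold changes of −0.15 (edgeR adjusted p = 0.30 and 0.49).

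Of the complement genes outside C1q, 11 of 12 tested had a lower fitted level, with a median log2 fold change of −0.26, and DESeq2 called 5 lower, 1 of them C1s1, which edgeR did not test. Over all genes, 8616 of 17125 had a lower fitted level, and DESeq2 called 564 of 17318 lower. C1ra, a serine protease that C1q carries, was at 0.998, 1.94 and 1.67 CPM in the controls and at 0.497, 0.470 and 0.513 CPM in the mutants (log2 fold change −1.63, SE 0.31), with an adjusted p of 0.083 in edgeR and 0.0032 in DESeq2. Its partner protease gene C1s1 was at 0.184 to 0.772 CPM in the controls and 0.0342 to 0.0705 CPM in the mutants (DESeq2 adjusted p = 0.0045). The others DESeq2 called lower were named after their values were seen. They were Serping1, the inhibitor of C1r and C1s (23.4 ± 2.78 against 16.3 ± 0.931 CPM, edgeR adjusted p = 0.085), Cd55, a surface inhibitor of complement (10.6 ± 1.25 against 7.59 ± 0.271 CPM, edgeR adjusted p = 0.12), and C3, the central component (3.12 ± 1.83 against 1.004 ± 0.256 CPM, edgeR adjusted p = 0.15, SD, n = 3 each). The groups overlapped for C3, as control heart 1 at 1.08 CPM lay within the mutant range of 0.844 to 1.30 CPM. The 5 genes called lower are also made by mesenchymal, endothelial or liver cells, and the most abundant of the list, Cd93 of endothelium, was at 262 ± 30.1 against 246 ± 16.3 CPM (SD, n = 3 each). C2 was the tested gene of this list with a higher fitted level (log2 fold change 0.02).

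All 5 tested Fc receptor and adaptor genes had a lower fitted level, and 0 were called by edgeR or DESeq2. Fcgrt, which carries IgG through endothelium and phagocytes, was at 24.9, 22.6 and 27.0 CPM in the controls and at 18.9, 20.7 and 21.6 CPM in the mutants, with no overlap (log2 fold change −0.29, edgeR adjusted p = 0.18). Fcer1g, the adaptor through which Fcgr3 signals, was at 3.67 to 4.05 CPM in the controls and 3.21 to 3.74 CPM in the mutants (edgeR adjusted p = 0.61). Fcgr1, an activating receptor, and Fcgr2b, the inhibitory one, were named after their values were seen. Neither overlapped between the groups (log2 fold changes −0.63 and −1.29, SE 0.25 and 0.48, edgeR adjusted p = 0.23 and 0.20). Fcgr2b rested on 112 reads over all hearts, at 0.37 to 0.85 CPM in the controls and 0.12 to 0.34 CPM in the mutants. In this list 3 of the 5 tested genes were lower without overlap, beside 12.8% of all genes.

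Of 14 tested surface and scavenger genes, 9 were higher and 5 lower. Stab1 and Dab2, which take up modified proteins and are shared with endothelium, were highest in level, at 40.4 to 75.3 and 38.7 to 69.4 CPM in the controls and 60.6 to 78.5 and 60.0 to 75.0 CPM in the mutants. Control heart 2 was the lowest of the 6 hearts for both. Hpgds, a prostaglandin D synthase, had a log2 fold change of 0.67 (edgeR adjusted p = 0.23). Lyve1, a hyaluronan receptor of resident macrophages and of lymphatic and endocardial endothelium, was at 13.8, 12.02 and 10.1 CPM in the controls and at 8.64, 9.24 and 8.51 CPM in the mutants, with no overlap (log2 fold change −0.45, adjusted p = 0.15 in edgeR and 0.064 in DESeq2).

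Among the 25 phagocyte and leukocyte genes, 12 were higher and 13 lower. Lcp1, the leukocyte actin bundler, was at 32.3, 26.9 and 27.9 CPM in the controls and at 41.2, 39.0 and 33.2 CPM in the mutants (log2 fold change 0.38, edgeR adjusted p = 0.14). Cybb, the catalytic subunit of the phagocyte oxidase, was at 3.78, 4.12 and 3.70 CPM in the controls and at 2.56, 2.47 and 2.60 CPM in the mutants (log2 fold change −0.60, edgeR adjusted p = 0.12). Neither gene overlapped between the groups, and they lay in opposite directions. Lyz2, lysozyme, spanned 28.2 to 44.7 CPM in the controls and 29.9 to 47.5 CPM in the mutants. Of the 8 tested chemokine and receptor genes 2 were higher and 6 lower, none at an unadjusted p under 0.05. The smallest p in each direction belonged to Ccl24 (log2 fold change 0.94, edgeR adjusted p = 0.31) and Ccl6 (−0.64, edgeR adjusted p = 0.30), and Ccl2 was at −0.16.

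**Figure D4:**
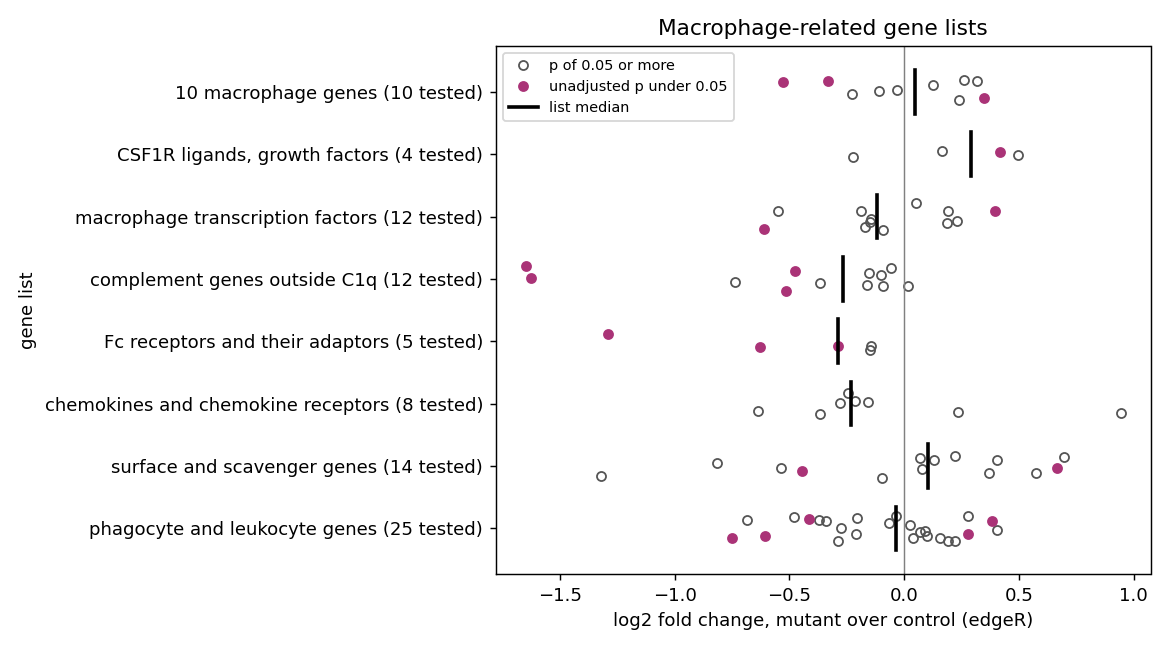
Log2 fold change (mutant over control, edgeR) of each tested gene in the list of 10 macrophage genes and 7 related lists, with filled points for an unadjusted p under 0.05, open points for the rest and a black bar for each list's median. The complement and Fc receptor lists lie mostly below 0 (medians −0.26 and −0.29), and the other lists fall on both sides.

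The summed markers of monocytes and of granulocytes were lower in the mutant hearts. The CPM of 7 monocyte markers summed to 3.76, 7.69 and 6.24 in the controls and to 2.43, 2.68 and 3.38 in the mutants, and those of 10 granulocyte markers to 2.60, 32.1 and 2.13 in the controls and to 1.11, 1.32 and 1.68 in the mutants. Both sums were lower in every mutant heart. Gene by gene the markers did not all do so, since the groups were apart for 1 of 3 tested monocyte and 2 of 4 tested granulocyte genes, beside 12.8% of all genes, and no marker passed the adjusted threshold in edgeR. The unadjusted threshold was passed as lower by 1 of 3 and 2 of 4, beside 9.98% of all genes, and DESeq2 called 2 monocyte genes and 1 granulocyte gene lower. Ccr2, the chemokine receptor of monocytes, was at 1.71, 3.78 and 3.36 CPM in the controls and at 1.02, 1.20 and 1.91 CPM in the mutants (log2 fold change −1.12, adjusted p = 0.17 in edgeR and 0.041 in DESeq2), and Plac8 had a log2 fold change of −0.61 (edgeR adjusted p = 0.30). Control heart 2 alone held the granulocyte genes S100a8 and S100a9 at 9.57 and 8.31 CPM, where the other controls were at 0.309 to 0.788 CPM and the mutants at 0.047 to 0.410 CPM. Fitted without control heart 2, the log2 fold change was −0.38 for C1qb and −0.58 for Ptprc. The part of these cells in the values of Ptprc and C1qb was not tested.

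The sums of the remaining lineages overlapped between the groups, although single erythroid genes did not. Lymphoid markers summed to 0.499 to 0.749 CPM in the controls and 0.487 to 1.20 CPM in the mutants, with Cd3e and Ncr1 at 0 counts in every heart. Mast cell markers summed to 25.6 to 42.0 and 27.8 to 31.5 CPM and platelet markers to 31.6 to 32.2 and 25.7 to 36.0 CPM, so that for F13a1 the platelet sums overlapped between the groups. Endothelial markers summed to 1104 to 1420 CPM in the controls and 1247 to 1307 CPM in the mutants. Tissue of neighbouring organs was scarce. Liver markers summed to 2.34, 4.085 and 4.26 CPM in control hearts 1 to 3 and to 2.29, 2.63 and 1.85 CPM in mutant hearts 1 to 3, with Fgb at 0 counts. Lung and gut markers summed to 0.137 to 0.477 CPM over all 6 hearts, with Nkx2-1 at 0 counts. Of 11 erythroid genes 3 passed an unadjusted p of 0.05 in each direction, and of 10 cardiomyocyte genes 2 passed it as higher and 0 as lower, beside 9.48% and 9.98% of all genes. The adult globin gene Hba-a1 ran from 2188 to 9411 CPM in the controls and 1613 to 3061 CPM in the mutants. The embryonic globin genes, named after their values were seen, were higher in every mutant heart, Hbb-bh1 at 1.06 to 3.05 against 14.0 to 16.5 CPM (log2 fold change 2.98, adjusted p = 0.065 in edgeR and 6.7e-23 in DESeq2). Hba-x was at 6.98 to 39.1 against 76.7 to 118 CPM and Hbb-y at 42.6 to 454 against 802 to 1201 CPM (edgeR adjusted p = 0.11 and 0.15). Their part in the values of the macrophage genes was not tested.

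**Figure D5:**
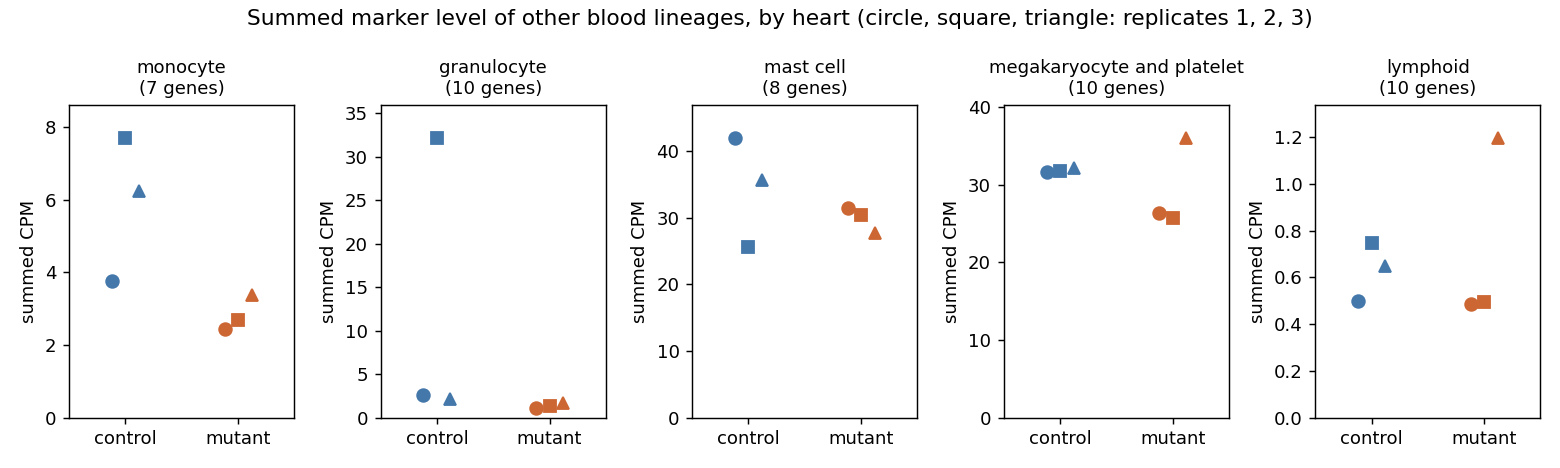
Summed CPM of marker genes of 5 other blood lineages in each heart, on linear axes from 0, with control hearts in blue, mutant hearts in orange and a symbol for each replicate number. Monocyte and granulocyte sums are lower in every mutant heart, granulocyte markers reach 32.1 CPM in control heart 2 alone, and the other lineages overlap.

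The mean profile of the macrophage genes was taken as the mean over the 10 genes of each gene's z-score across hearts. Genes with opposite differences between the groups partly cancel in it. The mean profile ran from 0.86 in control heart 1 to −0.91 in control heart 2, with the mutant hearts between −0.04 and 0.08. Over the 6 hearts, 127 of 14625 other genes with a mean of at least 1 CPM had a Pearson r above 0.9 with it. The highest were Slc25a45 (r = 0.99, Spearman rho = 0.94), 1700017B05Rik (r = 0.99, rho = 0.89), Enpp2 (r = 0.98, rho = 0.83), Slc35b3 (r = 0.98, rho = 0.94) and Pcdhb5 (r = 0.98, rho = 0.71). Without control hearts 1 and 2, the farthest from the median, r was 0.89 for Slc25a45 and 0.87 for Slc35b3, but 0.58, −0.05 and 0.30 for 1700017B05Rik, Enpp2 and Pcdhb5, which rested on those 2 hearts. These values describe genes picked as the highest of the table over hearts that share their libraries and depths.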

How the data were processed

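RNA of 6 whole hearts was sequenced by the authors, who mapped 76 bp paired-end reads with STAR 2.4.2a to GRCm38 using GENCODE vM6 and deposited raw counts per gene from summarizeOverlaps. The use of strand and the handling of reads on overlapping genes are not given in the sources used here. The authors' deposited DESeq2 table gave gene symbols (45143 of 45792 identifiers matched) and a mean normalized signal per gene. Its fold changes and p-values were not used, and 0 columns of per-sample values were left out.

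Counts were fitted in R 4.3.3 with edgeR 4.0.16 (TMM, filterByExpr with a minimum count of 10 and total of 15, quasi-likelihood test on condition alone, Benjamini-Hochberg adjustment over all tested genes, threshold 0.05). The common biological coefficient of variation was 0.153. Transcript lengths and exon overlaps came from GENCODE vM21, coordinates and promoters from RefSeq. Protein sequences were not analysed here. The edgeR fit was tested on simulated counts. Every library pair differed by more than counting noise (chi-square per degree of freedom at least 19.2), so each heart was 1 replicate. The labels do not give litters, while the paper states that mutants were always analysed with litter mate controls. Control and mutant hearts may therefore share litters. The fits on condition alone treat all hearts as independent, and p-values measure the spread between these hearts.

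Named genes were the 10 macrophage genes, Ino80, Tek, the 2 most abundant genes of each list and its genes with the smallest p in each direction, the 2 most abundant markers of each lineage (most given within their list's sum) and those at 0, and the 5 genes most like the mean profile. A single gene that this rule names is not reported here. The genes, lists and alternatives were chosen with earlier results of these data known. Alternatives tried were DESeq2 1.42.0, RLE size factors, 2 other low-count filters, thinning to the smallest total, the replicate block, an adjusted p of 0.1 and leaving out each heart.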

Additional observations from a re-analysis of the deposited data

How the results depend on the processing

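No macrophage gene was called under any of the alternatives, each heart left out in turn included. The count over all tested genes moved from 0 higher and 0 lower to 436 and 564 with DESeq2, 262 and 341 with no low-count filter, 2 and 1 after thinning, 195 and 214 at an adjusted p of 0.1, and 1 and 13 with the replicate block, and leaving out 1 heart gave 0 to 320 higher and 0 to 431 lower, the highest both without control replicate 1. The replicate numbers gave no sign of pairing. The correlations of same-numbered hearts were 0.024, −0.084 and −0.073, beside −0.076 to 0.14 for hearts of different numbers. Which hearts shared a litter is not given, so pairing by litter was not tested. With the replicate block the median log2 fold change of the 10 genes was 0.0545, and it ran from −0.0751 without control replicate 2 to 0.160 without control replicate 1. The sign of 56 of 60 values was kept when a heart was left out and of 60 of 60 under the other settings. It turned for Cd68 (−0.0067 without control replicate 2, range to 0.24), C1qc (0.077 without control replicate 1 and 0.10 without mutant replicate 1, range from −0.14) and Fcgr3 (0.015 without control replicate 1, range from −0.23). The lowest adjusted p so reached were 0.067 for Cx3cr1 and 0.080 for F13a1, both without control replicate 1. The log2 ratio of Mrc1 to Csf1r was 0.023 after thinning (exact permutation p = 1) and ran from −0.15 to 0.096 over the hearts left out, that of F13a1 from −0.12 to 0.18 and that of Cx3cr1 from 0.0051 to 0.13. The causes were not tested. The median SE of the 10 genes was 0.18 on the log2 scale, against 0.13 over all tested genes, which sets the size of difference that 3 hearts a group could show.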
